A study of Mus musculus with 2 samples.

Results

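The genes described here are 29 genes of cholesterol and fatty acid synthesis, chosen as a fixed list of symbols and counted in each of 6 conditions. All 29 were present among the 32285 genes of the deposited feature table. By role they comprise 4 genes that control sterol supply (Srebf1, Srebf2, Insig1 and Stard4) and 7 of the mevalonate steps (Acat2, Hmgcs1, Mvk, Pmvk, Mvd, Idi1 and Fdps). A further 11 act in the squalene and sterol steps (Fdft1, Sqle, Lss, Cyp51, Tm7sf2, Msmo1, Nsdhl, Hsd17b7, Ebp, Sc5d and Dhcr7), and 7 serve fatty acid synthesis (Acly, Acaca, Fasn, Scd1, Scd2, Elovl6 and Me1).

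Single-cell 3′ RNA libraries were made from skin cells of mice carrying Sox9-CreER and R26-LSL-YFP on a background labelled C57B6/J, males and females pooled. The mice were either Phgdh +/+ or Phgdh fl/fl. Both genotypes carry the Cre, which marks cells of the Sox9-expressing follicle lineage with YFP and in fl/fl mice also deletes Phgdh, the gene of the first enzyme of serine synthesis, in the cells where it acts. Each genotype was sampled without a wound and at 3 and 5 days after wounding. Unwounded cells were sorted as YFP+ bulge stem cells (integrin-α6 high, CD34+, CD200+, SCA1-), whereas wounded cells were sorted on integrin-α6 and YFP alone, so stage and sorting gate cannot be told apart. Cells with CD140a, CD117, CD31 or CD45 had been gated out at all stages. The age of the mice and the number of animals per condition are not given in the sources used here.

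Cells make cholesterol from acetyl-CoA through the mevalonate pathway to farnesyl diphosphate, which is joined to squalene, closed into lanosterol and then trimmed to cholesterol. When sterols in the endoplasmic reticulum run low, the membrane-bound factors encoded by Srebf2 and Srebf1 are released and raise the genes of the sterol and fatty acid pathways respectively, with overlap. Skin is rich in both products: keratinocytes that differentiate need cholesterol and fatty acids for the barrier lipids, and sebaceous glands make lipid for secretion.

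Every condition was 1 pool of hashtagged cells from the same capture, with no replicate, so no test could be run. The words higher and lower therefore describe these pools only. Levels are unique molecular identifiers (UMIs, counted molecules) summed over the cells of a pool and scaled to that pool's total (CPM, the usual unit of depth-scaled counts). Intervals are 95% intervals for counting error only (exact Poisson for levels, exact conditional binomial for ratios). They do not hold the spread between cells or animals. The pools held 406 and 662 unwounded cells (+/+ and fl/fl), 1281 and 523 cells at 3 days, and 1353 and 1434 cells at 5 days. Unwounded cells were shallower, with medians of 7174.5 and 7243 UMIs per cell against 36277 to 45701.5 in the wounded pools, and unwounded pools held 3241223 and 5167131 UMIs against 22247350 to 70925244. A count of 0 would allow up to 0.926 CPM in the unwounded +/+ pool, and no member was at 0 in any pool. Phgdh itself was at 54.3, 117 and 138 CPM in the +/+ pools (unwounded, 3 and 5 days) and at 25.2, 15.3 and 20.2 CPM in the fl/fl pools. Cells called female made up 31.1% and 23.7% of the +/+ pools at 3 and 5 days and none of the other pools, although 197 of 406 and 378 of 662 unwounded cells had too few UMIs of the sex-linked genes to be called, so genotype values at those stages are also given for male cells. Of the lists that mark other tissues, the endothelial, lymphocyte and macrophage lists summed to at most 6.94 CPM in any pool, with the defining genes Cdh5, Cd3e and Adgre1 at 0 in 3, 5 and 3 pools. The nerve or muscle list reached at most 22.4 CPM. The neutrophil list, which includes S100a8, summed to 12.6 and 10.3 CPM in unwounded pools, 380 and 308 CPM at 3 days and 112 and 154 CPM at 5 days, with Ly6g at 0 in 5 pools, and its part in the wounding differences was not tested.

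Wounded cells carried more sterol synthesis message than unwounded cells in both genotypes and at both times. Summed over the 18 mevalonate and sterol genes, the level was 541 CPM in the unwounded +/+ pool and 525 CPM in the unwounded fl/fl pool. It was 1438 CPM (+/+) and 1450.5 CPM (fl/fl) at 3 days, and 1368 CPM (+/+) and 1481 CPM (fl/fl) at 5 days. The 4 wounded pools thus lay close together and well above both unwounded pools. The 7 fatty acid genes summed to 245 and 202 CPM in unwounded +/+ and fl/fl cells and to between 317 and 358 CPM in wounded cells, a smaller step. These are pooled sums, in which a shift in the kinds of cells and a shift in the level per cell cannot be told apart. Summed suprabasal markers were at 2147 and 2037 CPM in unwounded and 6638 to 11007 CPM in wounded pools, and cycling markers at 245 and 260 against 1061 to 1216 CPM. Melanocyte markers, mostly Mitf, were at 596 and 515 CPM in unwounded and at most 32.9 CPM in wounded pools, and fibroblast markers at 29.3 and 32.3 against at most 1.66 CPM. The part of these in the sterol difference was not tested in the pooled sums.

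Counts of members were read against all genes measured, meaning those whose mean over both pools compared reached 5 CPM. Of the 28 members measured, 14 were at least 2-fold higher at 3 days than in unwounded +/+ cells, where 11.8% of the genes measured passed that fold. At 5 days in +/+ cells the count was 15 of 28, beside 10.8% of the genes measured. In fl/fl cells it was 15 of 28 at 3 days (12.3% of the genes measured) and 17 of 28 at 5 days (12.4%). No member was at least 2-fold lower in any of these comparisons, where between 27.9% and 28.8% of the genes measured were. The median log2 fold of the members was 1.0 and 1.02 in +/+ cells at 3 and 5 days and 1.19 and 1.21 in fl/fl cells. Over all genes measured the median was -0.29, -0.34, -0.31 and -0.29 in the same order. Under trimmed-mean (TMM) scaling the median over all genes moved to 0.30 and 0.29 in +/+ cells, and 23 members passed the 2-fold mark at each time, beside 25.3% and 24.5% of the genes measured. The 3- and 5-day comparisons of a genotype share their unwounded pool.

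**Figure D1:**
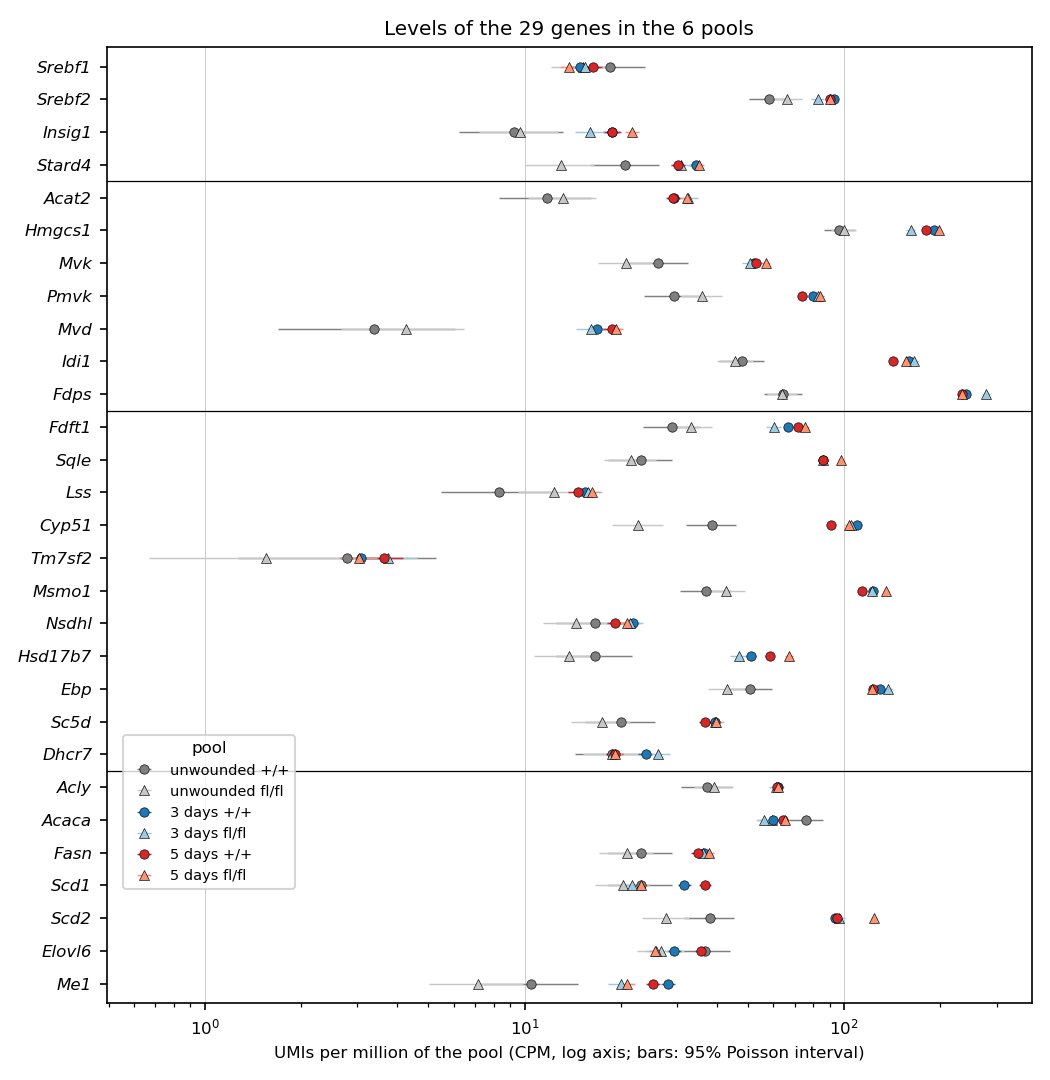
Levels of the 29 genes in the 6 pools, in CPM on a log axis, with circles for +/+ and triangles for fl/fl and 95% Poisson intervals as bars; lines part the control, mevalonate, sterol and fatty acid genes. Grey unwounded symbols lie left of the coloured wounded ones for all 7 mevalonate genes, and the 2 sets mix for Srebf1, Acaca, Scd1 and Elovl6 among others.

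Among the control genes, Srebf2, which encodes the factor that drives the cholesterol pathway, was at 58.3 and 66.4 CPM in unwounded +/+ and fl/fl cells. Its wounded levels were 92.9 and 82.7 CPM at 3 days and 90.5 and 90.4 CPM at 5 days, above both unwounded pools. The log2 folds over unwounded cells were 0.67 and 0.63 in +/+ cells and 0.32 and 0.44 in fl/fl cells, with all 4 intervals above 0. Srebf1, the partner that favours fatty acid genes, was at 18.5 and 15.3 CPM without a wound, 14.9 and 15.5 CPM at 3 days and 16.4 and 13.8 CPM at 5 days (+/+ and fl/fl each time). Its wounded and unwounded levels overlapped and all 4 intervals of the fold held 0. Insig1 encodes the sterol-sensing protein that holds the factors back and is itself one of their targets. It was at 9.26 and 9.68 CPM in unwounded cells and at 16.0 to 21.8 CPM in the 4 wounded pools. Stard4, a carrier of cholesterol between membranes, was at 20.7 CPM (+/+) and 13 CPM (fl/fl) without a wound and at 30.2 to 35.1 CPM in wounded cells.

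All 7 mevalonate genes had intervals above 0 in all 4 comparisons, which 28.9% and 27% of the genes measured did in +/+ cells (3 and 5 days) and 30.4% and 30.8% in fl/fl cells. Hmgcs1, whose product condenses acetoacetyl-CoA with acetyl-CoA at the entry of the pathway, was in unwounded cells at 96.6 CPM (+/+) and 99.7 CPM (fl/fl). It was at 190.5 and 162 CPM at 3 days and 179.9 and 197 CPM at 5 days, for log2 folds of 0.98 and 0.90 in +/+ cells and 0.70 and 0.99 in fl/fl cells. Every wounded pool was above both unwounded pools, and the fl/fl pool at 3 days was the lowest of the wounded ones. Fdps, the synthase of farnesyl diphosphate, was at 64.5 and 63.9 CPM in unwounded cells, at 240.3 and 279 CPM at 3 days, and at 234 CPM in both pools at 5 days. Its log2 folds were 1.90 (1.70 to 2.10) and 1.86 (1.66 to 2.07) in +/+ cells and 2.13 (1.97 to 2.29) and 1.87 (1.72 to 2.04) in fl/fl cells.

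Idi1, which isomerises the 5-carbon building block, was at 47.8 and 45.7 CPM in unwounded cells and at 142 to 165 CPM in wounded cells. Mvd, whose decarboxylase makes that building block, was scarce without a wound, at 3.39 CPM from 11 UMIs (+/+) and 4.26 CPM from 22 UMIs (fl/fl). At 16.1 to 19.3 CPM in wounded cells, it had the largest fold of any member in +/+ cells, 2.32 (1.47 to 3.32) at 3 days and 2.47 (1.62 to 3.48) at 5 days, with wide intervals. Both unwounded levels of Mvd were under 5 CPM, so it met the minimum mean of 5 CPM only through the wounded pools. It is included in the counts of members past 2-fold. The kinase genes Mvk and Pmvk had log2 folds between 0.99 and 1.46 in the 4 comparisons. Acat2, the cytosolic thiolase that joins 2 acetyl-CoA units, lay between 1.29 and 1.32. The near-identical mouse gene Acat3 could share reads with Acat2, and how such reads were counted is not given in the sources used here.

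Along the squalene and sterol steps, 10 of 11 genes were measured and all 10 had a log2 fold above 0 in every wounding comparison, with medians from 1.26 to 1.35. Over all genes measured, the median was below 0 in each of these comparisons before TMM scaling. Tm7sf2, a sterol reductase, stayed between 1.55 and 3.73 CPM, under the 5 CPM minimum throughout. Sqle, the oxygenase that opens the committed part of sterol synthesis, was at 23.1 and 21.5 CPM in unwounded cells, 86.0 and 85.9 CPM at 3 days, and 86.1 and 97.6 CPM at 5 days. The log2 folds in fl/fl cells were 2.0 (1.72 to 2.29) and 2.18 (1.91 to 2.47). Hsd17b7, a ketosteroid reductase of cholesterol synthesis, was at 16.7 and 13.7 CPM without a wound, 51.2 and 46.8 CPM at 3 days and 58.5 and 67.2 CPM at 5 days. It was the member with the largest fold in fl/fl cells at 5 days, 2.29 (1.95 to 2.65).

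Cyp51, the lanosterol demethylase, was the sterol gene whose unwounded pools stood furthest apart, at 38.6 CPM (+/+) and 22.6 CPM (fl/fl). Its wounded levels were alike, at 109 and 105 CPM at 3 days and 90.8 and 103 CPM at 5 days. The fold over unwounded cells was therefore larger in fl/fl cells (2.21 and 2.19) than in +/+ cells (1.5 and 1.24), a difference that was not tested. The unwounded +/+ level of Cyp51 rested on few cells, as 56 of 406 held a UMI. The top 5 cells held 45.6% of its 125 UMIs there and 27.4% of 117 UMIs in the unwounded fl/fl pool. Msmo1, which removes the methyl groups at carbon 4, had log2 folds of 1.52 to 1.74, and Ebp, a sterol isomerase, of 1.27 to 1.67. Fdft1, squalene synthase, ranged from 0.86 to 1.31 and Sc5d, a sterol desaturase, from 0.87 to 1.19. The smallest steps were those of Lss (0.35 to 0.89), Nsdhl (0.21 to 0.56) and Dhcr7 (0.03 to 0.48). Dhcr7, which catalyses a last reduction to cholesterol, was at 18.8 CPM in both unwounded pools and at 19.2 CPM in both pools at 5 days.

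**Figure D2:**
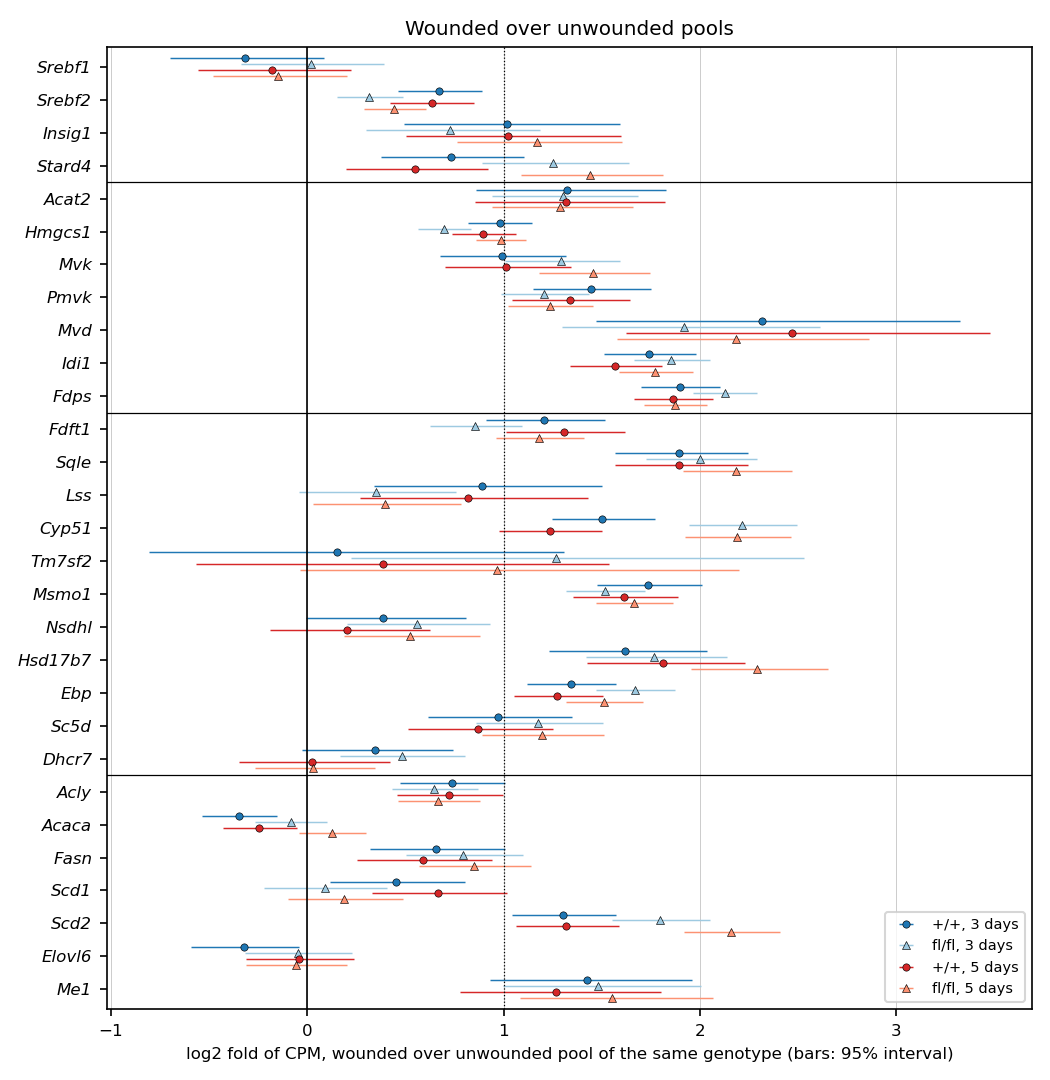
Log2 fold of CPM in wounded over unwounded pools for each gene, with 95% intervals for counting error; colours give the genotype and day, and the dotted line marks 2-fold. Every mevalonate and sterol gene lies right of 0, Mvd reaches 2.47, and Srebf1, Acaca and Elovl6 lie near 0 or left of it.

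The fatty acid genes differed more among themselves. Scd2, a desaturase that makes monounsaturated fatty acids, was at 37.9 and 27.7 CPM in unwounded cells, 93.5 and 96.2 CPM at 3 days and 94.7 and 124 CPM at 5 days. Its log2 folds were 1.30 and 1.32 in +/+ cells and 1.80 and 2.16 in fl/fl cells. Me1, the malic enzyme that supplies NADPH, was at 10.5 and 7.16 CPM without a wound and between 20 and 28.1 CPM in wounded cells. Its top 5 cells held 70.6% (+/+) and 62.2% (fl/fl) of its unwounded UMIs. Acly, which makes cytosolic acetyl-CoA from citrate, and Fasn, the fatty acid synthase, had smaller log2 folds of 0.65 to 0.74 and 0.59 to 0.85.

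Acaca encodes the carboxylase that commits acetyl-CoA to fatty acids. It was at 75.9 and 59.6 CPM without a wound, 59.7 and 56.3 CPM at 3 days and 64.1 and 65.2 CPM at 5 days. In +/+ cells its log2 folds were -0.35 (-0.53 to -0.15) and -0.24 (-0.43 to -0.05), close to the median of all genes. Elovl6, which lengthens palmitate, lay between -0.32 and -0.04 in the 4 comparisons. In +/+ cells this rested on few cells: without the 6 and 3 cells that held at least 6 of 10 sebocyte markers, its log2 folds were -0.61 (-0.89 to -0.33) and -0.77 (-1.04 to -0.49), and in fl/fl cells they were -0.05 and -0.08. Under TMM scaling the direction of these turned in +/+ cells, to 0.21 and 0.36 for Acaca and 0.24 and 0.56 for Elovl6, and that of Srebf1 turned to 0.24 and 0.42. In fl/fl cells the Elovl6 folds reached 0.49 and 0.51 under alternative settings. Set against unwounded clusters 2 and 6 alone, Acaca in +/+ cells was at 0.06 and 0.17. Scd1, a second desaturase, was at 23.1 and 20.3 CPM in unwounded cells, and at 31.6 and 36.7 CPM in wounded +/+ cells against 21.6 and 23.1 CPM in wounded fl/fl cells.

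The sequence before the start was compared among members. RefSeq promoter windows on GRCm38.p6 (250 bases before to 50 after the start, 1 window per gene) were given for 23 of the 29 members. The box CCAAT, bound by the factor NF-Y, which works beside sterol factors at many of their targets, was found on either strand in 18 of the 23 windows (78.3%), compared with 37.9% of 27025 promoters. The 5 windows with no such box were those of Acat2, Dhcr7, Acaca, Elovl6 and Me1. That of Acaca, at chr11:84195188-84195487, lay well inside the gene, whose listed start is 84129635. It therefore does not show the sequence before that start. The windows of Fasn and Srebf1 also lay inside the listed span of the gene. The Sp1 box GGGCGG was also in 18 of the 23 windows, compared with 35.9% of promoters, and the E-box CACGTG in 3 of 23, compared with 7.24%. The sterol element TCACNCCAC was in 1 window, that of Hmgcs1, compared with 1.22% of promoters. There it read TCACCCCAC and began 137 bases before the start, 34 bases from the nearest CCAAT box. These are matches of letters and not evidence of binding, and other forms of the sterol element were not searched.

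The 250 bases before the start are shown for 3 genes with large folds, for Hmgcs1 and for Elovl6, whose window held no CCAAT box. The Elovl6 log2 folds were below 0, but only -0.05 and -0.06 in fl/fl cells. Those in +/+ cells turned under TMM scaling, and those in fl/fl cells reached 0.49 and 0.51 under alternative settings. Whether a box goes with the fold was not tested. In +/+ cells at 3 days the genes without a box were at 1.32 (Acat2), 1.42 (Me1), 0.35 (Dhcr7), -0.35 (Acaca) and -0.32 (Elovl6). Genes with a box ran from -0.32 (Srebf1) to 2.32 (Mvd). The sequences run 5′ to 3′ along the gene's strand. Capitals mark CCAAT boxes (ATTGG on the opposite strand) and, in Hmgcs1, the sterol element as well. The windows are chr13:119690101-119690350 (plus strand) for Hmgcs1, chr13:8885356-8885605 (plus strand) for Idi1, chr5:4104698-4104947 (minus strand) for Cyp51, chr8:64733579-64733828 (minus strand) for Msmo1 and chr3:129532136-129532385 (plus strand) for Elovl6, in GRCm38.p6 coordinates.
Hmgcs1: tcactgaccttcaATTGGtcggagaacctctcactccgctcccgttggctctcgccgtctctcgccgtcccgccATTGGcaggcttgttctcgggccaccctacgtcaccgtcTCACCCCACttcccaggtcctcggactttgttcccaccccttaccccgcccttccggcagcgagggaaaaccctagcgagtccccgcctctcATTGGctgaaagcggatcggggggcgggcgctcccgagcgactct
Idi1: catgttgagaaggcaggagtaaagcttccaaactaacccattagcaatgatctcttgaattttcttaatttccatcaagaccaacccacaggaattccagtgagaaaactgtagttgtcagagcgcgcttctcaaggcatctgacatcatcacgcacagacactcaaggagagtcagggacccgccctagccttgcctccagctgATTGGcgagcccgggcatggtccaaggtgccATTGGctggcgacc
Cyp51: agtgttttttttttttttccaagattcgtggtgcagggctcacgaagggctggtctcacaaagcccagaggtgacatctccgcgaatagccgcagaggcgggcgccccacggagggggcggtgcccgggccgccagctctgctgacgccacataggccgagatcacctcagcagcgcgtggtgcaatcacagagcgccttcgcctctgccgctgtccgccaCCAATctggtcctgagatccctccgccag
Msmo1: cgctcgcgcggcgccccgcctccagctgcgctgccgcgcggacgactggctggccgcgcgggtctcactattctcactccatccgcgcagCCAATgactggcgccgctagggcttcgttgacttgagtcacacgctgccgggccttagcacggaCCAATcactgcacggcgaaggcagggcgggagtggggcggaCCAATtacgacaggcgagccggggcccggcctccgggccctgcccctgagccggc
Elovl6: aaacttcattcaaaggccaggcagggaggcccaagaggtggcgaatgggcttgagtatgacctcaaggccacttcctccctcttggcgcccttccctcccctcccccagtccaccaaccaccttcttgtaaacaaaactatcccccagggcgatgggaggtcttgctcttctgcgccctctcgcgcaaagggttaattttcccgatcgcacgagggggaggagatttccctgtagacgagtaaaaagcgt
The boxes lay 45 and 14 bases before the start in Idi1, 29 bases before it in Cyp51 and 160, 96 and 55 bases before it in Msmo1, counted from the first base of the box.

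Cells were clustered on genes other than the members and other lipid genes, which gave 17 clusters, and almost all unwounded cells fell in clusters 2, 6 and 14. Clusters 2 and 6 were bulge-like, with 8 of 8 bulge markers. Cluster 14, with 54 +/+ and 40 fl/fl unwounded cells, had 7 of 8 but did not meet every naming rule and was left unnamed. The 17 of 406 +/+ cells and 29 of 662 fl/fl cells outside these 3 clusters held 34.8% and 29.2% of the sterol UMIs, against 13.5% and 10.5% of all UMIs. These cells lay in clusters made up mostly of wounded cells.

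When unwounded cells were restricted to clusters 2 and 6, the counts were larger. The number of members at least 2-fold higher was then 18 and 18 of 28 measured in +/+ cells, beside 14.1% and 13% of the genes measured. In fl/fl cells it was 17 and 18 of 28, beside 14.1% and 14.2%. Wounded skin also held bulge-like cells, in cluster 5, and these allowed a closer match of cell type, although different clusters hold the class with and without a wound. The summed sterol level of cluster 5 at 3 days was 1091 CPM (+/+) and 1185 CPM (fl/fl), against 413 and 415 CPM in clusters 2 and 6 of unwounded cells of the same genotype. The log2 folds were 1.40 (1.30 to 1.5) and 1.51 (1.42 to 1.61), and 1.15 (1.04 to 1.26) for +/+ cells at 5 days. At 3 days, 22 of 27 members measured were higher by a log2 fold of at least 0.32 and 1 was lower by as much in +/+ cells, beside 26.7% and 39.1% of genes, and 23 and 0 in fl/fl cells, beside 27.7% and 37.9%. Cyp51 (2.14 and 2.35), Fdps (1.84 and 2.22), Idi1 (2.14 and 1.99) and Sqle (2.03 and 2.07) had log2 folds near 2 in both genotypes, whereas Dhcr7 was at -0.34 and 0.01.

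The difference was also seen at equal depth. After each cell was thinned to 3000 UMIs, at least 1 UMI of the 18 genes was found in 69.9% of +/+ and 68.1% of fl/fl unwounded cells, and in 90.6% to 92.5% of cells of the wounded pools. Between 11 and 24 cells per pool were too shallow and were left out. For Sqle the thinned share was 4.56% and 5.00% without a wound and 18.2% to 21.0% in wounded pools, and before thinning it was 9.61% and 11.2% against 68.9% to 77.3%. Free RNA, estimated from barcodes of few UMIs, could account for 3.21% and 3.28% of all UMIs in unwounded pools and 0.517% to 0.635% in wounded ones. In that free RNA Sqle was at 109.9 CPM and Fdps at 184 CPM, above their unwounded levels, so part of the unwounded shares may be background, and no cell type without these genes was at hand to measure it. Across the cells of a wounded pool, the sterol sum and the fatty acid sum, each as a share of a cell's UMIs, were correlated with Spearman's rho between 0.568 (n = 1353 cells) and 0.616 (n = 1434 cells). The sterol share was itself correlated with the depth of a cell, at rho from 0.234 to 0.414 in wounded pools, and both sums share each cell's total.

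Among wounded cells the sterol genes were highest in 3 clusters. Summed over the 18 genes in all wounded cells of a cluster, the level was 1877 CPM in cluster 0 (682 suprabasal-like cells, with Krt1 and Krt10), 1839.9 CPM in cluster 13 (119 granular-like cells) and 1821 CPM in cluster 3. That cluster of 558 cells was left unnamed and had Krt6b, Krt16 and S100a8 among its leading genes. The cycling-like clusters 1 and 8 followed with 1534 and 1309 CPM. Lower sums were found in upper follicle-like cluster 11 (1129.7 CPM), wound edge-like cluster 7 (1069 CPM), bulge-like cluster 5 (1043 CPM) and basal-like cluster 10 (1018 CPM). The lowest were the unnamed clusters 12 (Cxcl9 and Cxcl10 high, 839 CPM) and 9 (Sox6 and Wnt3 high, 827 CPM). All of these exceeded the unwounded bulge-like cells. Cluster 15, 65 cells of low depth, was at 949.5 CPM. Elsewhere median depth ran from 15756.5 UMIs per cell in cluster 5 to 64211 in cluster 1, and its part in the order was not tested.

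Individual members differed in where they peaked. Hsd17b7 was at 108 CPM in granular-like cells and 14.8 CPM in bulge-like cluster 5, and Mvd at 32.1 CPM in suprabasal-like cells and 4.52 CPM in cluster 9. Fdps was at 344 CPM in suprabasal-like cells and 122 CPM in cluster 9. Ebp ranged only between 88.3 CPM in granular-like cells and 151 CPM in suprabasal-like cells, and in cluster 13 it was lowest where most other sterol genes were high. Scd2 was highest in cluster 3 (177 CPM) and cluster 0 (151 CPM). Me1 was highest in upper follicle-like (62.5 CPM), granular-like (52.9 CPM) and suprabasal-like cells (51.4 CPM), and at 3.58 to 9.31 CPM in clusters 5, 7, 8, 9, 10 and 12.

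Cluster 4 held the fatty acid genes unevenly. Its 405 wounded cells had the junctional-zone genes Lrig1 and Lgr6 and Apoe among the leading genes, met the naming level for 5 of 10 sebocyte markers, and were left unnamed. Over all its wounded cells the sterol sum was 1024 CPM, the fatty acid sum 508 CPM, Scd1 141 CPM and Elovl6 139 CPM, but 8 cells that held at least 6 of 10 sebocyte markers carried much of this. In the other 397 cells the sterol sum was 877 CPM and the fatty acid sum 264 CPM, below the 463 CPM of suprabasal-like cluster 0. Scd1 was then at 44.6 CPM, below upper follicle-like cluster 11 without such cells (58.3 CPM), and Elovl6 at 30.8 CPM, within the range of the other clusters (10.6 to 32.9 CPM). Srebf1, at 34.2 CPM over all cells, was at 27.6 CPM without the 8, above the other clusters (5.24 to 18.1 CPM).

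**Figure D3:**
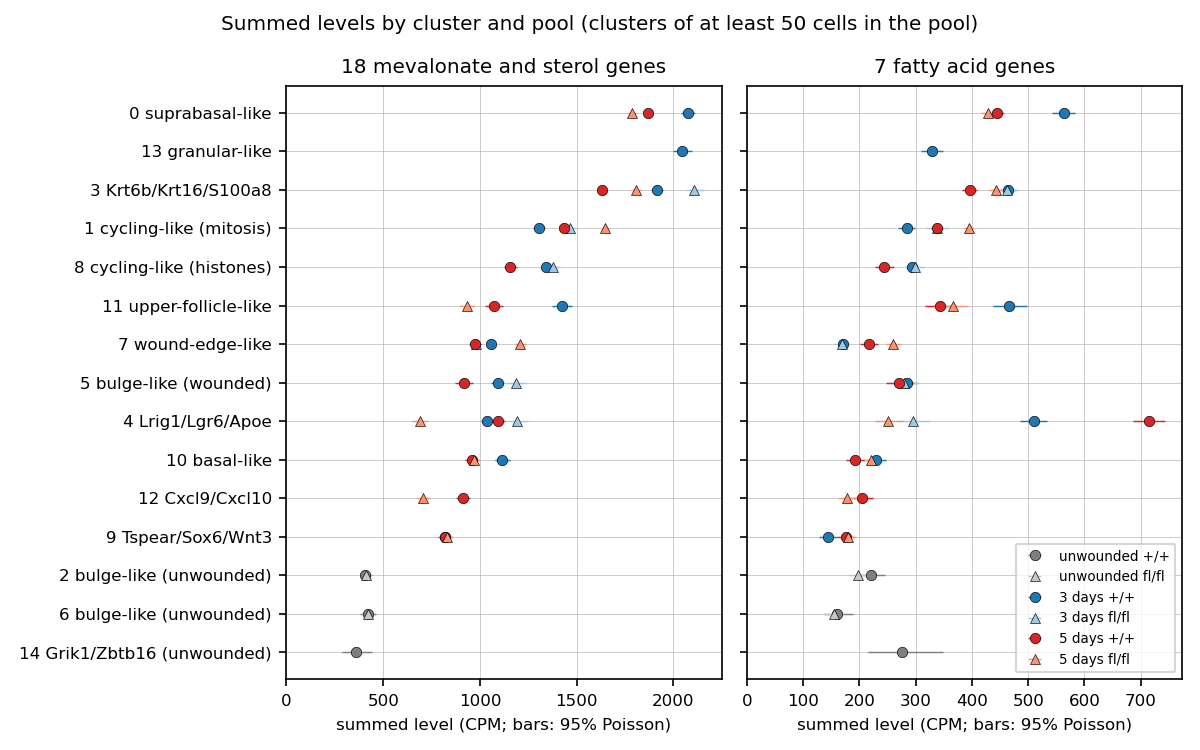
Summed levels of the 18 mevalonate and sterol genes (left) and the 7 fatty acid genes (right) by cluster and pool, in CPM with 95% Poisson intervals, for clusters of at least 50 cells in a pool. Sterol sums run from 360 CPM in unwounded cluster 14 to 2109 CPM in cluster 3 of fl/fl cells at 3 days, and the widest spread between pools is that of cluster 4 on the right.

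Between 3 and 5 days the +/+ pools were close for these genes. None of 28 differed by a log2 fold of 0.32 or more, the mark used between like pools, where 4.79% of the genes measured were higher and 8.7% lower by that much. Their median log2 fold was -0.04, equal to that of all genes. Dhcr7 (-0.32, short of the mark before rounding) and Cyp51 (-0.27) were closest to the mark on the lower side and Elovl6 (0.28) on the higher side. Without the sebocyte-marker cells Elovl6 was at 24 CPM at 3 days and 21.5 CPM at 5 days, and its fold turned to -0.16. In fl/fl cells 4 members were higher by that much at 5 days and 1 was lower, beside 8.31% and 10.9% of the genes measured. They were Hsd17b7 (0.52), Insig1 (0.44), Scd2 (0.36), Fdft1 (0.33) and, lower, Dhcr7 (-0.45). Under other settings the fl/fl count of 5 was as low as 2.

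The genotype comparisons set cells with floxed Phgdh beside +/+ cells. In unwounded skin 1 member was past the mark of 0.32 on the higher side in fl/fl cells and 7 on the lower side, of 27 measured, beside 8.29% and 15.5% of the genes measured. Cyp51 (-0.77, -1.14 to -0.39) and Stard4 (-0.67, -1.18 to -0.16) were the lowest, and Acaca, Elovl6 and Scd2 also had intervals below 0, as had 11% of the genes measured. Lss (0.57) was higher with an interval that held 0, as did those of Mvk (-0.34) and Me1 (-0.55). These counts are small: Stard4 rested on 67 UMIs in each pool and Me1 on 34 and 37. The top 5 cells held 70.6% (+/+) and 62.2% (fl/fl) of the Me1 UMIs, and 45.6% and 27.4% of the Cyp51 UMIs. Within bulge-like clusters 2 and 6 the sterol sum was 413 CPM (+/+) and 415 CPM (fl/fl), 0.01 on the log2 scale (-0.10 to 0.12), with Cyp51 at -0.52 (-1.07 to 0.05). The fatty acid sum there was 199 and 177 CPM, -0.17 on the log2 scale (-0.34 to -0.01).

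At 3 days the genotypes were close. No member was past the mark on the higher side and 2 on the lower side in fl/fl cells, beside 1.18% and 5.03% of the genes measured. These were Scd1 (-0.55, -0.70 to -0.40) and Me1 (-0.49, -0.65 to -0.34). Of the sterol genes Fdps was higher in fl/fl cells (0.21) and Hmgcs1 lower (-0.24), both with intervals that left out 0. In male cells alone, Hmgcs1 was at -0.20 and Fdps at 0.08, the sterol sum was at -0.05 (-0.07 to -0.03), and Me1 was at -0.23.

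At 5 days the sterol genes were slightly higher in fl/fl cells as a group. Of the 17 measured, 15 had a log2 fold above 0, 13 of them with intervals above 0, which 25.2% of the genes measured had. Their median was 0.13, within a range from -0.01 (Ebp) to 0.26 (Msmo1), and the median of all genes was 0.01. None reached the mark of 0.32. In male cells the sum was 1497 CPM (fl/fl) and 1391 CPM (+/+), 0.11 on the log2 scale (0.09 to 0.12). Over all members 1 was past the mark on the higher side and 2 on the lower side, beside 2.14% and 6.06% of the genes measured. Scd2 was the higher one (124 CPM against 94.7 CPM in +/+ cells, 0.38, 0.33 to 0.43), and Scd1 (-0.67) and Elovl6 (-0.48) were the lower ones. With cells called female left out no member passed the mark, and Scd2 was at 0.29 in male cells. In male cells alone no member passed it either, where 1.86% of the genes measured were higher and 4.23% lower by that much. Cycling-like cells, whose sterol sums are given above (1534 and 1309 CPM), made up 17.3% of the +/+ pool and 23.7% of the fl/fl pool. With these clusters left out, the 5-day genotype fold of Idi1 went from 0.14 to -0.02. No other member whose interval left out 0 changed sign in this comparison. How much of the pooled difference lies in this make-up was not tested.

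**Figure D4:**
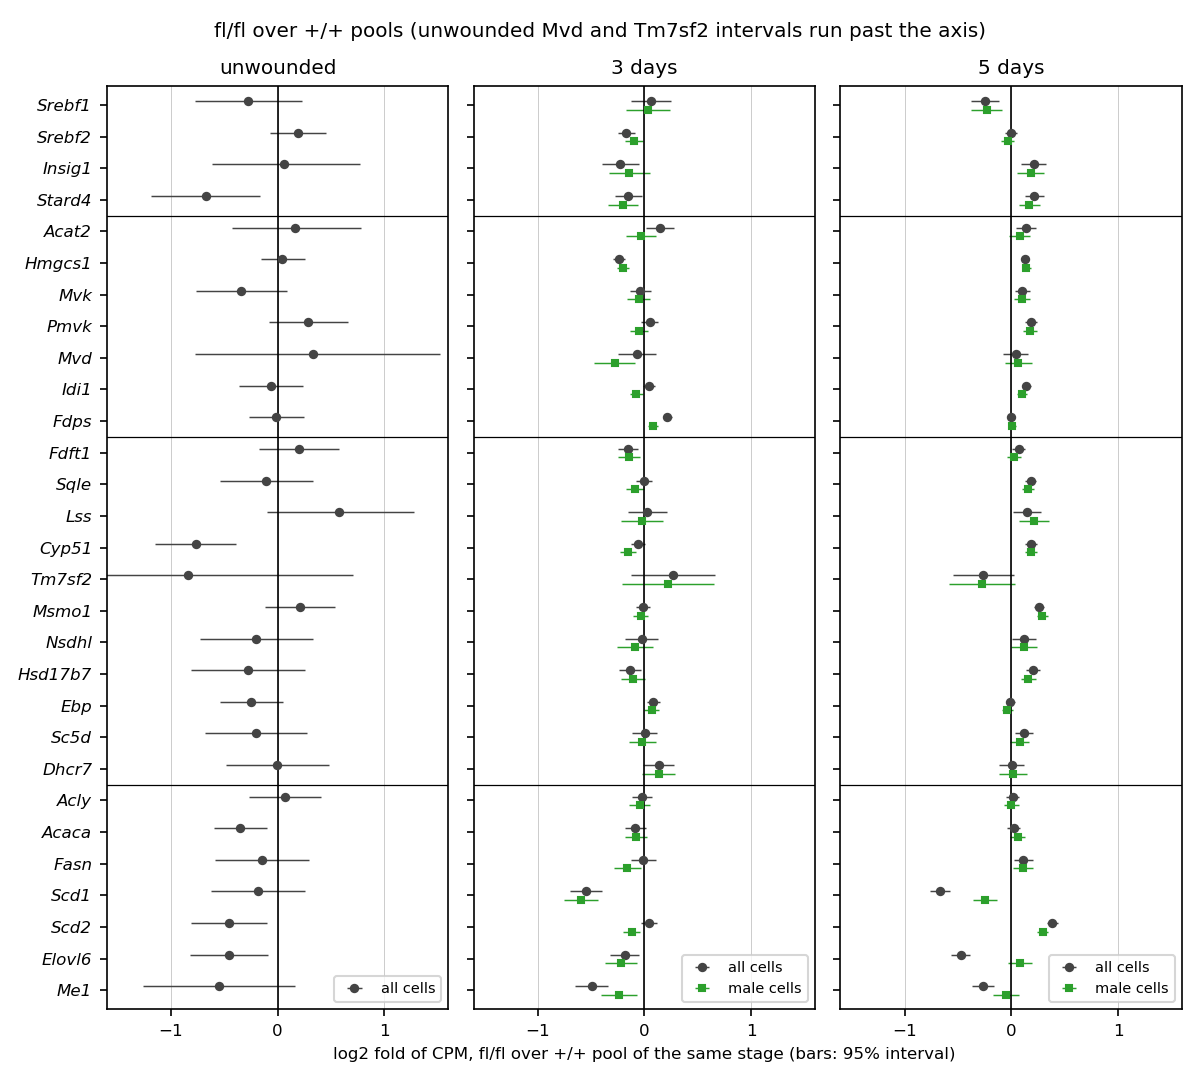
Log2 fold of CPM in fl/fl over +/+ pools at each stage, for all cells (dark circles) and, where +/+ pools held cells called female, for male cells (green squares), with 95% intervals. At 5 days most sterol genes sit just right of 0, and the fold of Elovl6 moves from -0.48 in all cells to 0.08 in male cells.

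By cluster, the genotype difference in the sterol sum did not keep 1 sign. At 5 days it was 0.20 in cycling-like cluster 1 (0.17 to 0.23), 0.15 in cluster 3, 0.31 (0.25 to 0.37) in wound edge-like cluster 7, -0.07 in suprabasal-like cluster 0, -0.20 in cluster 11 and -0.37 (-0.46 to -0.28) in cluster 12. In male cells of cluster 7 the value was 0.32, with 16 of 28 members higher by at least 0.32 beside 14.9% of the genes measured in those cells. At 3 days the same cluster was at -0.11 (-0.17 to -0.06), and at -0.29 in male cells, with 18 of 28 members lower by at least 0.32 beside 19.8% of genes. Idi1, for example, was at -0.49 at 3 days and 0.63 at 5 days in all cells of cluster 7. In cluster 12 at 5 days 14 of 27 members were lower by at least 0.32 in fl/fl cells, beside 14.7% of genes. These contrasts rested on few cells. Male cells of cluster 7 numbered 58 (fl/fl) and 70 (+/+) at 3 days and 87 and 55 at 5 days. Cluster 12 held 81 and 78 cells at 5 days. Whether a few cells carried these sums was not tested.

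The Scd1 and Elovl6 differences rested largely on few cells. Cells with at least 6 of 10 sebocyte markers numbered 6 in the +/+ pool at 3 days, 3 in the +/+ pool at 5 days, 1 in the fl/fl pool at 5 days and none elsewhere. Summed over all cells the 10 markers were at 139.7 to 187 CPM in the 6 pools, with 0 to 5 of them at 0 in a pool. The 3 cells of the 5-day +/+ pool held 31.8% of its Scd1 UMIs and 39.8% of its Elovl6 UMIs. In that pool the top cell for each gene, taken separately, held 23.2% of Scd1 and 33.1% of Elovl6 UMIs. At 3 days the 6 +/+ cells held 20.7% of Scd1 and 18.8% of Elovl6 UMIs. Without such cells Scd1 was at 25.2 CPM (+/+) and 21.6 CPM (fl/fl) at 3 days, a smaller log2 fold of -0.22 (-0.38 to -0.07). The 5-day levels were 25.1 and 22.6 CPM. Elovl6 at 5 days was then at 21.5 CPM (+/+) and 25.2 CPM (fl/fl), a log2 fold of 0.23 in the opposite direction. The sterol sum of cluster 4 at 5 days behaved likewise: 1092 CPM (+/+) and 688 CPM (fl/fl) with all cells (-0.67, with 22 of 28 members lower by at least 0.32 beside 17.9% of genes), and 779 and 688 CPM without the 3 cells (-0.18, with 6 members lower beside 16.9%). Of these 3 cells 2 were called female.

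**Figure D5:**
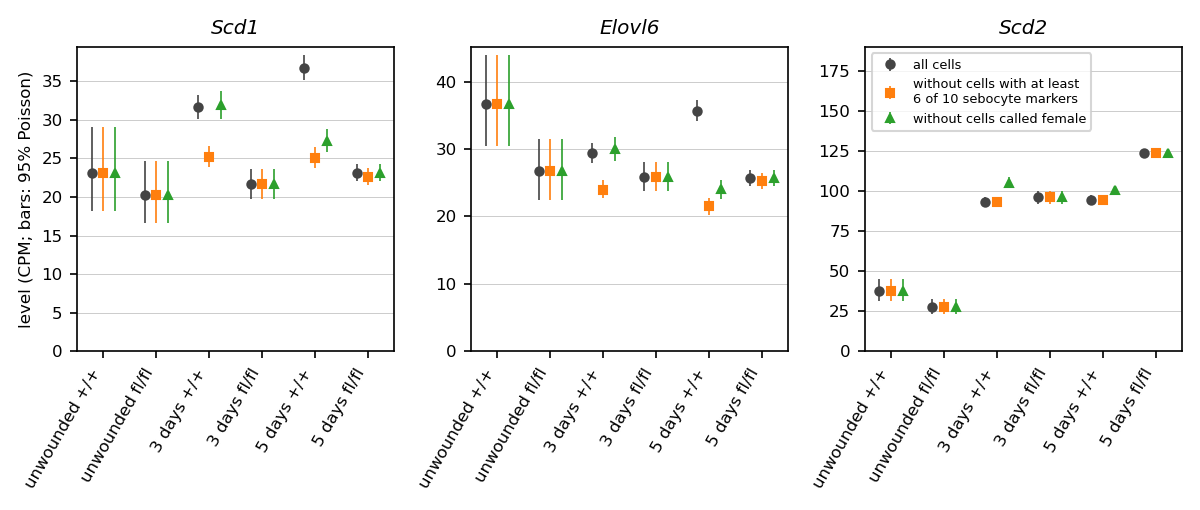
Levels of Scd1, Elovl6 and Scd2 in the 6 pools in CPM with 95% Poisson intervals, over all cells, without cells holding at least 6 of 10 sebocyte markers and without cells called female. The 5-day +/+ level of Elovl6 is 35.7 CPM over all cells and 21.5 CPM without 3 of them.

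Female and male cells of the same +/+ pool come from different animals and allowed a comparison within a genotype and stage, in which sex and animal cannot be told apart. At 3 days, 9 of 28 members were lower by a log2 fold of at least 0.32 in the 399 female cells than in the 748 male cells and 1 was higher, beside 5.34% and 11.6% of the genes measured. The sterol sum was 1285 CPM in female and 1521 CPM in male cells (-0.24, -0.27 to -0.22). At 5 days it was 1328 and 1391 CPM (-0.07, -0.10 to -0.04), with 1 member lower and 3 higher beside 13% and 27.4% of genes. Scd2 was lower in female cells at both times (-0.71 and -0.64) and Me1 higher (0.58 and 0.92). These differences between animals of 1 genotype are as large as or larger than those between genotypes for the sterol sum at 3 days and for Scd2 at both wounded stages.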

How the data were processed

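The authors deposited raw UMI counts per gene and hashtag for 1 capture of 6 hashtagged pools. Per the submitters' processing notes, Cell Ranger 7.1.0, Seurat 4.3.0 and the build mm10 were named, with no role given. Of 2997303 barcodes, 6900 passed minimums of 1000 UMIs and 500 genes and a limit of 10% mitochondrial UMIs. HTODemux (Seurat 5.3.0, R 4.3.3, quantile 0.99) gave 5659 singlets, 503 doublets, which were removed, and 738 unassigned barcodes. Scrublet called 0 further doublets and was not relied on, and about 126 doublets within a hashtag are expected to remain. Counts were summed per pool and scaled to CPM. Free RNA was not subtracted. Comparisons were described with no test, because nothing states separate animals for a condition. Cells were clustered with scanpy 1.11.5 (2000 variable genes without the members and other lipid genes, 30 components, 15 neighbours, Leiden resolution 1). A cluster was named from a fixed list where at least 3 of its markers reached 10 CPM and 2-fold over other cells, where these were 2 of every 3 markers or 2 were among its 10 leading genes, and where no other list had more of those 10. Cells with at least 2 Xist UMIs and at most 1 Y-linked UMI were called female. The alternatives tried were other cell, hashtag and CPM cut-offs, scaling by TMM in edgeR 4.0.16, cells weighted equally, free RNA subtraction and leaving out cell groups. Every member is accounted for, and up to 4 genes of other lipid lists are named by size of fold among those of at least 20 CPM. Members and lists were chosen with earlier results of these data known. The calculations were tested on simulated data.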

Additional observations from a re-analysis of the deposited data

Results flagged for a closer look

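Genotype differences that took opposite signs at different stages are listed here where a member passed the log2 mark of 0.32 both ways, or where the summed sterol level of a cluster had counting intervals on opposite sides of 0 at 3 and 5 days. None of these differences between stages was tested, since each condition was 1 pool. By counting intervals alone 7 members lay on opposite sides of 0 at different stages (Insig1, Stard4, Hmgcs1, Fdft1, Cyp51, Hsd17b7 and Scd2). The share of all genes that did so is not given here, so this count is not read as particular to the members. Scd2 was lower in fl/fl than in +/+ cells without a wound (log2 fold -0.46) and higher at 5 days (0.38). In cluster 4, the unnamed cluster with Lrig1, Lgr6 and Apoe, the summed sterol level was higher in fl/fl cells at 3 days (0.20) and lower at 5 days (-0.67). The 5-day value was -0.18 without 3 +/+ cells that held at least 6 sebocyte markers. Cluster 4 of the 3-day +/+ pool held 5 such cells, and the 3-day value was not recomputed without them. In wound edge-like cluster 7 the same sum was lower in fl/fl cells at 3 days (-0.11) and higher at 5 days (0.31). These values rested on 71 fl/fl and 153 +/+ cells at 3 days and on 91 and 64 at 5 days.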

How the results depend on the processing

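No paired analysis was possible because each condition was 1 pool, so no replicate could be left out either. Of the values recomputed under alternatives, 3798 stayed within the interval of the reported value (motif counts, within 1.5 times), 383 lay outside it and 5 that had passed the fold mark changed sign. Among 4176 member folds, 205 had another sign than reported, 26 of them where the reported interval left out 0 (mostly Elovl6, Scd1 and Acaca). Under TMM scaling 23 members passed 2-fold in +/+ cells at 3 days and 23 at 5 days, where 14 and 15 did before, and the share of all genes went from 11.8% and 10.8% to 25.3% and 24.5%. The unwounded genotype count of 8 was 13 with at least 2000 UMIs per cell, 13 with at most 5% mitochondrial UMIs and 5 with at least 20 CPM. In these 4 settings, in that order, 15.5%, 14.9%, 18.1% and 9.91% of all genes were lower by that much and 8.29%, 8.13%, 12.1% and 4.52% higher. The 3-day genotype count of 2 was 1 with at most 5% or 20% mitochondrial UMIs and 1 without cells called female, without cluster 4 or without cells holding at least 6 sebocyte markers. The 5-day count of 3 was 0, 1 and 1 without the same 3 sets of cells. Between 3 and 5 days the fl/fl count of 5 was 2 under a hashtag rule of 20 UMIs and 70%, 2 with equal weight per cell and 3 without cycling-like clusters. The +/+ count of 0 was 1 with equal weight, 2 without female cells, 1 with free RNA subtracted and 2 without cycling-like clusters. For the 3-day and 5-day genotype counts and the day counts, shares of all genes under these settings are not given here. Changes in those counts are therefore not read as particular to the members. Leaving out cluster 4, cycling-like clusters or sebocyte-marker cells, and keeping unwounded clusters 2 and 6 alone, were chosen after seeing the data. Mvd, at 0.33 between unwounded genotypes but under the CPM minimum, was -0.24 with at least 2000 UMIs. Elovl6 at 5 days, at -0.48, was 0.35 with at most 5% mitochondrial UMIs, 0.10 without female cells, 0.24 without cluster 4 and 0.23 without sebocyte-marker cells. Beyond the cells left out, the cause was not tested. Low counts in the unwounded pools limit every fold against them.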

Other observations

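Other lipid genes were read from lists of neighbouring pathways, and the 4 wounding comparisons are given as +/+ at 3 and 5 days, then fl/fl at 3 and 5 days. Genes of barrier lipids had median log2 folds of 1.48, 1.02, 2.04 and 1.69. Sult2b1, which makes cholesterol sulfate, was at 48.4 CPM in unwounded and 260 CPM in 3-day +/+ cells (2.43, 2.20 to 2.66), and at 15.1 and 273 CPM in fl/fl cells. Elovl4, which makes very long fatty acids for ceramides, was at 33.0 and 148 CPM and the lipid transporter gene Abca12 at 47.5 and 168 CPM in +/+ cells. Genes that supply NADPH had medians of 0.47, 0.69, 0.70 and 1.0. The 17 genes of fatty acid elongation and activation summed to 666 CPM (+/+) and 638 CPM (fl/fl) in unwounded cells. In the wounded pools they summed to 796 to 857 CPM.

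Sterol handling genes had medians below 0, at -0.27, -0.42, -0.42 and -0.48, close to the medians over all genes. Mylip, whose product marks lipoprotein receptors for breakdown, was at 36.1 CPM in unwounded and 11.1 CPM in 3-day +/+ cells, and Mbtps1, a protease that releases the sterol factors, at 61.4 and 24.3 CPM. Lists of serine-derived lipids (-0.28, -0.56, -0.12 and -0.41) and of fatty acid oxidation (0.13, -0.03, 0.01 and -0.08) were not above 2-fold in median. The ceramide synthase gene Cers4 was at 64.5 and 15.4 CPM, and Sptlc2, a subunit of the enzyme that joins serine to palmitoyl-CoA, at 49.1 and 109 CPM. These values carry the same differences in gate, depth and cell makeup as those of the 29 genes.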
